A study of Homo sapiens with 19 samples.

Results

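The subject of these data is a group of 9 receptor genes: KDR, FLT1, FLT4 and NRP1 for the vascular endothelial growth factors (VEGF), KIT for stem cell factor, FLT3 for the FLT3 ligand, and IGF1R, IGF2R and INSR for the insulin-like growth factors (IGF) and insulin. They are receptors of the families whose ligands are in the medium that drives the cells toward brown adipocytes (BAs), and the rule that names them uses no measured value, although it was written with earlier results of these data known. VEGFC and VEGFD, the ligands of FLT4, are not in that medium. The receptors make up 9 of the 20503 genes that the probes could be matched to, and 13 of the 50683 probes. The cells were KhES-3, 1 line of human embryonic stem cells (hESCs), kept in low-attachment dishes in a serum-free BA differentiation medium with IGF-II, BMP4, VEGFA, KITLG (stem cell factor), FLT3LG, IL-6 and an insulin, transferrin and selenium supplement. Every sample received this medium, and by the labels the samples differ only in the hours spent in it, from 3 to 72 h. Samples taken before induction and samples without the cytokines were not analysed here, so the values describe a course in time and not the effect of a cytokine.

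Each time point was 1 sample on 1 one-colour array, with no replicates, and the spread between cultures is therefore unknown. The 19 arrays lay on 3 slides, so that time and slide overlap. Slide 1 held 6 arrays (3, 4, 6, 8, 10 and 12 h), slide 2 held 8 arrays (14, 16, 20 and 24 h, then 28, 32, 36 and 42 h) and slide 3 held 5 arrays (48, 54, 60, 66 and 72 h). Between 49.5% and 64.7% of the probes were well above background on an array, with the lowest shares at 14 h (49.5%), 16 h (52.0%) and 72 h (53.8%). Signals are processed intensities scaled so that the 75th percentile of every array is 871, and no gene's level is set against another's. The summed signals of marker lists are dominated by their bright probes and serve only to follow a list in time. The hESC label was checked against 3 pluripotent cell markers, which were well above background on all 19 arrays. All means of signals are geometric, the mean of the log2 signals turned back to signal. From the mean of the first 3 arrays (3, 4 and 6 h) to that of the last 3 (60, 66 and 72 h), the signal of NANOG went from 30663 to 37373, that of SOX2 from 24013 to 23737 and that of POU5F1 from 349263 to 279830. The labels name a layer of mouse embryonic fibroblasts in the stem cell culture and the study's methods name a feeder-free system, and the part of mouse RNA in any signal was not tested.

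KDR, FLT1, FLT4, KIT, FLT3, IGF1R and INSR are receptor tyrosine kinases, which act as dimers whose chains phosphorylate each other once the ligand is bound and recruit adaptor proteins. INSR and IGF1R are linked dimers before they bind it. KDR (VEGFR2) carries most of the VEGFA signal in endothelial cells and marks early mesoderm that can form blood and vessels, FLT1 (VEGFR1) binds VEGFA tightly and is also made in short secreted forms that trap it, FLT4 (VEGFR3) binds VEGFC and VEGFD, and NRP1 is a coreceptor with no kinase. KIT and FLT3 are best known from blood stem and progenitor cells, and KIT is also found on hESCs. IGF1R and INSR signal for IGF-I, IGF-II and insulin, while IGF2R, the mannose 6-phosphate receptor, has no kinase, carries lysosomal enzymes and takes IGF-II into the cell to be degraded.

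In the GRCh38.p14 annotation, 4 of the receptors lie in pairs on the same chromosome, and the genes between them were not examined. KIT is at chr4:54657957-54740715 and KDR at chr4:55078481-55125595, with 337765 bases between them, and FLT3 is at chr13:28003274-28100576 and FLT1 at chr13:28300346-28495128, with 199769 bases between them. The others lie alone on chromosomes 5 (FLT4), 6 (IGF2R), 10 (NRP1), 15 (IGF1R) and 19 (INSR). The 250 bases before the start of each of these 4 genes are shown because these genes share a chromosome in pairs. They are RefSeq sequences on the GRCh38.p14 build, read 5′ to 3′ on the strand of the gene, with GC boxes (GGGCGG, or CCGCCC on the other strand) and the TATA box (TATAAA) in capitals.
KIT, chr4:54657707-54657956, plus strand: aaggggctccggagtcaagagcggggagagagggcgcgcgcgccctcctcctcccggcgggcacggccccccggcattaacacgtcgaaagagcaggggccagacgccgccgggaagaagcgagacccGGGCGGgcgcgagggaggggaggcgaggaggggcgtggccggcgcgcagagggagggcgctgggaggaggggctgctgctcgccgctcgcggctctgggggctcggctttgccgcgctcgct
KDR, chr4:55125596-55125845, minus strand: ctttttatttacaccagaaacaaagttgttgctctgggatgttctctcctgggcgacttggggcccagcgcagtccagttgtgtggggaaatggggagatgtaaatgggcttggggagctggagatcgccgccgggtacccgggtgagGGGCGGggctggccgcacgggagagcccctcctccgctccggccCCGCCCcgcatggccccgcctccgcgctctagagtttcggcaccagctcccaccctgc
FLT3, chr13:28100577-28100826, minus strand: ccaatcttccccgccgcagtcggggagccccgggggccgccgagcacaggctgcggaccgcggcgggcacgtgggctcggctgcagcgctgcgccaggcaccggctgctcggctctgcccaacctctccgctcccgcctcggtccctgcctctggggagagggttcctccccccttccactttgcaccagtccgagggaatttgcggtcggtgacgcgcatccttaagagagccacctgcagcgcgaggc
FLT1, chr13:28495129-28495378, minus strand: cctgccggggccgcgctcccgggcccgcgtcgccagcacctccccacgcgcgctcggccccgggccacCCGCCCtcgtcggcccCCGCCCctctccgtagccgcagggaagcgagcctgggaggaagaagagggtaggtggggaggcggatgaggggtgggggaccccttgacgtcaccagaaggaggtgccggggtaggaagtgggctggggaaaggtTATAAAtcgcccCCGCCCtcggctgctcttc
KIT had 1 GC box in this window, KDR 2, FLT1 3 and FLT3 none, and FLT1 had 1 TATA box. Of 35116 windows of the same length, 42.6% held a GC box on either strand and 10.7% a TATA box. The windows held 34 (KIT), 17 (KDR), 26 (FLT3) and 25 (FLT1) CpG pairs, against a median of 11 over all windows. Of the receptors, 7 were matched to a window, and IGF2R had 6 GC boxes, INSR 4 and IGF1R 2. A match of letters is a description and not a measured binding site.

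The course of each receptor was tested by regressing its log2 signal on the hours with limma, over all 32111 probes that were well above background on at least 5 arrays, with Benjamini-Hochberg adjustment over all of them. A gene with several probes was represented by the one with the highest mean signal, and the other probes are reported beside it. All 9 receptors passed this filter, 8 of them on all 19 arrays and FLT3 on 17. At an adjusted p under 0.05, 2 rose (KDR and NRP1), 4 fell (FLT1, FLT4, FLT3 and IGF2R) and 3 passed in neither direction (KIT, IGF1R and INSR). Of all tested probes 30.9% rose and 22.4% fell, and 53.4% were called in either direction, so the 6 of 9 receptors stand beside a background in which most probes moved. Without the 14 and 72 h arrays 3 receptors rose and 4 fell, KIT joining KDR and NRP1, beside 30.6% and 21.2% of all tested probes (51.8% in all). From 3 to 54 h 4 receptors rose (KDR, NRP1, KIT and INSR) and 3 fell (FLT4, FLT3 and IGF2R), beside 29.3% and 20.6%. The median slope of all tested probes was 0.0024 log2 units per hour.
A cubic curve in hours, which can also follow a dip or a peak, passed for 8 of the 9 receptors, all but IGF1R, against 76.8% of all tested probes.

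The slides set a limit to these calls. With the slide as a block, so that only the slope within slides counts, none of the 9 slopes passed (0 of 9, limma, adjusted p from 0.171 to 0.937), against 9.18% of all tested probes, 4.71% rising and 4.47% falling. At an unadjusted p under 0.05 in that fit there were 3 receptors, FLT4, FLT3 and IGF2R, all lower with time, against 25.6% of all tested probes and 11.5% that were lower. The cubic curve with the slide as a block passed for 6 of the 9 (KDR, FLT4, NRP1, KIT, FLT3 and IGF1R), against 31.6% of all tested probes. The scaling also moved the split of all probes: 14.6% rose and 34.6% fell (49.2% in all) when scaled to the array median, and 4.62% rose and 34.8% fell (39.5% in all) when scaled to the spike-in RNA added to every sample. The median change of all tested probes from the first to the last 3 arrays was 0.13 on the log2 scale with the 75th percentile, -0.24 with the median and -0.52 with the spike-in RNA, and directions below are relative to the 75th percentile unless stated. KDR rose and FLT1, FLT4, FLT3 and IGF2R fell with all 3 scalings, and NRP1 rose with the 75th percentile alone.

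KDR had the steepest rise among the representative probes of the receptors. On the first slide, in the order of the hours, the signal of KDR was 2897, 2383, 1912, 1782, 2000 and 1949. On the second slide it was 2322, 2978, 3674, 3903, 5558, 4075, 5150 and 5204. On the third it was 5422, 6368, 7742, 4922 and 5582. KDR therefore fell to its lowest signal at 8 h, passed its 3 h level at 16 h, and every array from 20 h on was above every array up to 16 h. The mean of KDR went from 2364 in the first 3 arrays to 5969 in the last 3, a 2.53-fold higher signal, with a slope of 0.0260 ± 0.0037 (SE) log2 units per hour (limma, adjusted p = 1.03e-05). The slope of KDR was -0.0538 within the first slide, 0.0374 within the second and -0.0048 within the third, and 0.0185 with the slide as a block (adjusted p = 0.217), so the rise took place mainly inside the second slide. In bulk RNA such as this, more cells with KDR and more KDR RNA per cell cannot be told apart, which holds for every gene below. The cubic curve of KDR passed with and without the block (adjusted p = 3.54e-06 and, with the block, 0.0366).

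**Figure D1:**
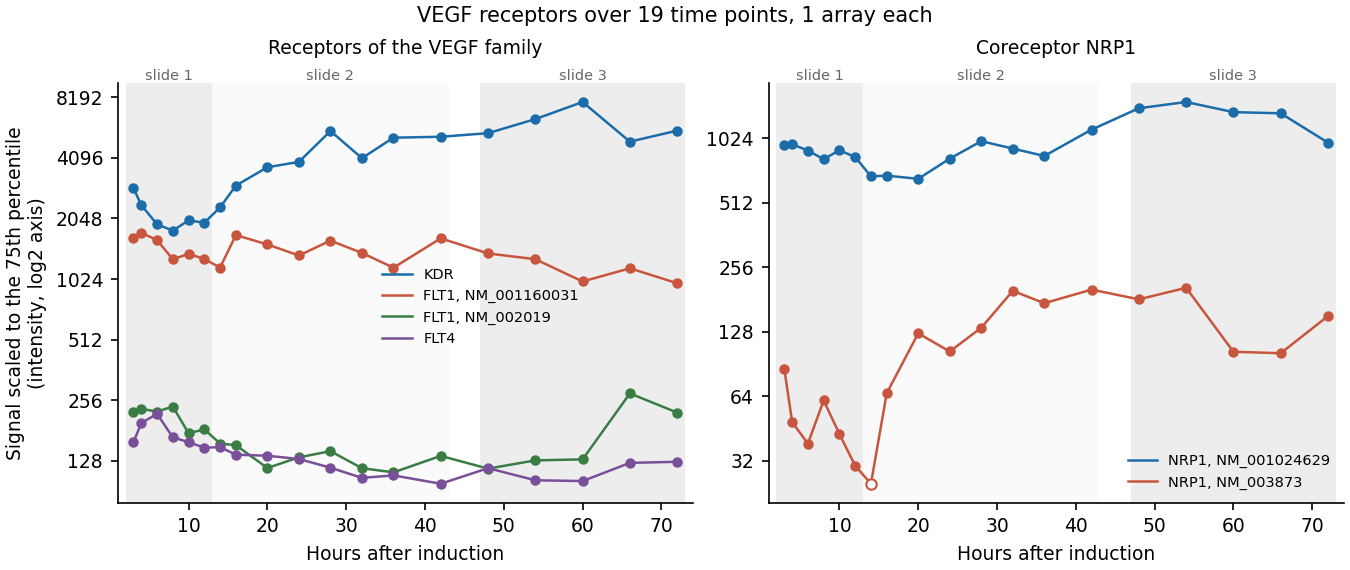
Signal scaled to the 75th percentile (log2 axis) against hours after induction, 1 point per array, for the VEGF receptors (left) and NRP1 (right). Shading marks the 3 slides and the open point is an array where the probe was not well above background. KDR climbs from 1782 at 8 h to 7742 at 60 h while FLT4 goes from 219 at 6 h to 98.7 at 42 h.

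FLT1 has probes for different transcripts, and they had different courses. The representative probe is named for NM_001160031, a transcript known to encode a short form without the membrane and kinase parts, and the other for NM_002019, which encodes the full-length receptor. The files do not say where in the transcript a probe lies, so whether each also detects the other form was not tested. The signal of the NM_001160031 probe ran from 1282 to 1737 (median 1477) on the first slide, from 1166 to 1692 (median 1448) on the second and from 976 to 1372 (median 1158) on the third. All arrays of this probe from 60 h on were below all those up to 6 h, and the means were 1655 and 1040, a 1.59-fold lower signal in the last 3 arrays. The slope of FLT1 was -0.0072 ± 0.0021 (adjusted p = 0.00757), and this call held in 7 of 11 alternatives. From 3 to 54 h alone the slope was -0.0032 (adjusted p = 0.384), and with the slide as a block -0.0081 (adjusted p = 0.428).
The FLT1 probe for NM_002019 gave 225, 232, 225 and 238 on the first 4 arrays, 118 at 20 h, 112 at 36 h (its lowest), and 130, 277 and 223 on the last 3 arrays. The slope of this U-shaped course did not pass (-0.0037, adjusted p = 0.487) except as a fall with the spike-in RNA (-0.0122, adjusted p = 0.0093), and its cubic curve passed (adjusted p = 2.97e-05). The signals of both FLT1 probes had a Pearson r of 0.023 over the 19 arrays.

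FLT4 rose from 158 at 3 h to 219 at 6 h, then fell gradually to 42 h and stayed low on the third slide. Its signal ran from 149 to 219 (median 163) on the first slide, from 98.7 to 150 (median 125) on the second and from 102 to 127 (median 118) on the third. It was highest at 6 h and lowest at 42 h, and every array from 28 h on was below every array up to 16 h. The mean of FLT4 went from 190 to 117, a 1.62-fold lower signal, with a slope of -0.0108 ± 0.0024 (adjusted p = 0.000998) and of -0.0121 with the slide as a block (adjusted p = 0.172). Within slides the slope of FLT4 was -0.0313, -0.0212 and 0.0083, so its trend was downward within the first and second slide and not within the third.

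The signal of NRP1 dipped, rose and dropped again on the last array. The representative probe is named for NM_001024629, known to encode a secreted form, and the other for NM_003873, the full-length form, and as for FLT1 it was not tested whether each also detects the other form. The signal of the NM_001024629 probe ran from 819 to 962 (median 899) on the first slide, from 663 to 1125 (median 835) on the second and from 978 to 1513 (median 1357) on the third. The lowest array was 20 h and the highest 54 h, and the arrays from 48 to 66 h were above every earlier array, but at 72 h the signal was 978, near its 3 h value of 957. Within slides the slope of this probe was -0.0210, 0.0249 and -0.0207, and it was 0.0074 with the slide as a block (adjusted p = 0.525). Its slope was 0.0108 ± 0.0028 (adjusted p = 0.00335), with means of 938 and 1212, but with the array median it was 0.0055 (adjusted p = 0.21) and with the spike-in RNA 0.0023 (adjusted p = 0.731), where the difference between the windows turned to -0.28 on the log2 scale.
The NRP1 probe for NM_003873 was dim on the first slide, between 30.4 and 86.3, was not well above background at 14 h, and lay between 102 and 206 on the third slide. Its mean went from 54.5 to 117, a 2.15-fold higher signal, with a slope of 0.0292 ± 0.0075 (adjusted p = 0.00309). This rise did not pass with the spike-in RNA (0.0207, adjusted p = 0.0584) or with the slide as a block (adjusted p = 0.244), and the probes of NRP1 had a Pearson r of 0.498 over the 19 arrays.

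KIT had 3 probes, and its verdict depends on which is read. The brightest, for NM_000222, was printed in 10 copies on each array, which gives the technical spread within an array: the SD of log2 signal over these copies was 0.063 in the median array and from 0.040 to 0.125 over all arrays. The signal of this KIT probe was 3016, 2835, 2318, 2344, 2381 and 2723 from 3 to 12 h, then 2289, 2124, 2714, 3200, 3788, 3215, 3530 and 2914 from 14 to 42 h, and 3759, 4079, 4016, 2535 and 2042 from 48 to 72 h. It thus stayed below its 3 h value until 20 h, was highest at 54 and 60 h, and ended at its lowest value. The geometric means of the first and last 3 arrays were 2706 and 2750, the slope was 0.0044 ± 0.0032 (adjusted p = 0.257), and the cubic curve passed (adjusted p = 0.000496, and 0.00869 with the slide as a block). The missing slope rested on the last array: without 72 h the slope of KIT was 0.0088 (adjusted p = 0.0191), and from 3 to 54 h it was 0.0134 (adjusted p = 0.00289). Scaled to the array median the slope turned to -0.0009 and scaled to the spike-in RNA to -0.0041, and neither passed.
The KIT probe for NM_001093772, a transcript known to encode a form that lacks a few residues next to the membrane, rose, and whether it also detects the other form was not tested. Its signal ran from 240 to 329 (median 304) on the first slide, from 285 to 697 (median 397) on the second and from 510 to 715 (median 606) on the third, and every array from 20 h on was above every array up to 16 h. Its mean went from 273 to 626, a 2.29-fold higher signal, with a slope of 0.0204 ± 0.0028 (adjusted p = 7.71e-06) that also passed with the array median (0.0151, adjusted p = 0.000252) and the spike-in RNA (0.0119, adjusted p = 0.0334). Its slope within slides was 0.0259 (slide as a block, adjusted p = 0.0444), the 1 slope among the 13 receptor probes that passed there.
The dimmest KIT probe, also for NM_000222, was well above background on 16 arrays and not at 14, 16 and 72 h, and its mean went from 40.3 to 77.2 with a slope of 0.0165 ± 0.0042 (adjusted p = 0.00265), which did not pass with the spike-in RNA (0.0080, adjusted p = 0.295) or with the slide as a block (adjusted p = 0.449). The bright probe had a Pearson r of 0.531 with the NM_001093772 probe and of 0.709 with the dim probe, and these had an r of 0.887 with each other, all over the 19 arrays.

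FLT3 was dim and fell on the first slide. Its signal on the 6 arrays of that slide was 92.6, 88.2, 84.6, 92.6, 70.7 and 51.0, and it then stayed between 47.9 and 67.2 on the arrays from 16 to 66 h. It was not well above background at 14 h and 72 h. These arrays also had high detection floors, with the dimmest probe well above background at 73.5 and 52.4, against 53.7 at 16 h and 19.8 to 37.7 elsewhere, and the FLT3 signals of 47.3 and 17.8 lay below these floors. The slope of FLT3 was -0.0174 ± 0.0038 (adjusted p = 0.000802), and without 72 h it was -0.0113 (adjusted p = 0.00666). Within slides it was -0.0804, 0.0012 and -0.0589, the last resting on 72 h.

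The IGF and insulin receptors moved less, with the highest array 1.48-fold (IGF2R) to 1.61-fold (IGF1R) above the lowest. The 6 arrays of the first slide gave 4353, 4520, 4822, 5909, 5529 and 5732 for IGF1R, and the 14 h array gave 4026. From 14 to 72 h it lay between 3676 (66 h) and 5082 (48 h). The high arrays were thus 8, 10 and 12 h, which exceeded all others, and the drop that followed fell between the last array of the first slide and the first of the second, where time and slide cannot be told apart. The slope of IGF1R did not pass (-0.0038 ± 0.0018, adjusted p = 0.0808). It passed as a fall when scaled to the array median (-0.0091, adjusted p = 0.00427) or to the spike-in RNA (-0.0123, adjusted p = 0.0155), and was 0.0005 with normexp background correction and quantile normalization (adjusted p = 0.847).

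IGF2R fell slowly. Its signal ran from 1667 to 1854 (median 1781) on the first slide, from 1296 to 1731 (median 1576) on the second and from 1249 to 1450 (median 1431) on the third. Every array of the third slide was below every array of the first, and the mean went from 1792 to 1337, a 1.34-fold lower signal. The slope of IGF2R was -0.0068 ± 0.0012 (adjusted p = 0.000154). It was -0.0010, -0.0076 and -0.0072 within the slides and -0.0071 with the slide as a block (adjusted p = 0.171), so the size was kept and the precision was not.

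INSR was at 1965 to 2264 on the first slide, 1901 to 2503 on the second and 1939 to 2940 on the third, and the ranges overlapped. Its highest arrays were 54 h (2823) and 60 h (2940), followed by 1939 at 66 h. The slope was 0.0040 ± 0.0018 (adjusted p = 0.0671), the cubic curve passed (adjusted p = 0.00611), and without the 66 h array the slope was 0.0058 (adjusted p = 0.00898). With the array median it was -0.0012 and with the spike-in RNA -0.0044, and neither passed.

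**Figure D2:**
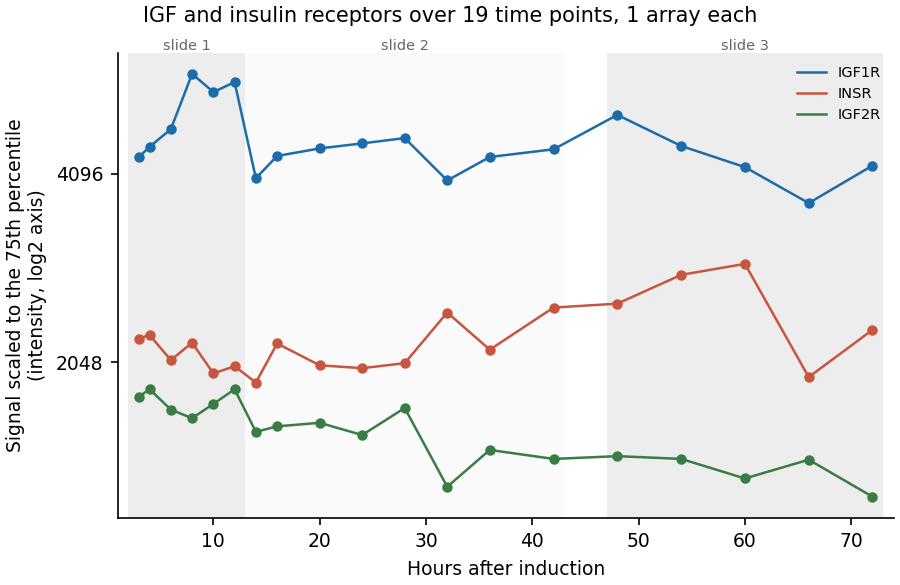
Signal scaled to the 75th percentile (log2 axis) of IGF1R, INSR and IGF2R against hours after induction, 1 point per array, with the 3 slides shaded. IGF1R peaks at 5909 at 8 h, INSR at 2940 at 60 h, and IGF2R ends at 1249 at 72 h.

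A ratio of 2 receptors on the same array does not change when the array is scaled by 1 factor, and its trend shows unequal change. The trend of 6 pairs was tested with a two-sided permutation test of the hours (100000 resamples), adjusted over the 6 pairs. The ratio of KDR to FLT1 rose 4.02-fold from the first to the last 3 arrays (0.0332 log2 units per hour, p = 1e-05, the smallest these permutations can give, adjusted p = 3e-05), and that of KDR to FLT4 rose 4.09-fold (0.0367, p = 1e-05, adjusted p = 3e-05). The ratio of KDR to NRP1 rose 1.96-fold (0.0152, permutation p = 0.00353, adjusted p = 0.00424), with NRP1 read by its NM_001024629 probe, while the NM_003873 probe had a slope (0.0292) above that of KDR (0.0260) and was not paired with it. FLT1 was read by its NM_001160031 probe (slope -0.0072), and its NM_002019 probe (-0.0037) was not paired with KDR. The ratio of KIT to FLT3 rose 2.61-fold (0.0218, permutation p = 6e-05, adjusted p = 0.00012), but FLT3 was not well above background at 14 and 72 h. KIT was read by its brightest probe (slope 0.0044), while its NM_001093772 probe had a slope of 0.0204 and was not paired with FLT3. Without 72 h the ratio of KIT to FLT3 was 2.17-fold higher at 60 and 66 h than on the first 3 arrays, with a slope of 0.0201 (permutation p = 0.00036, adjusted p = 0.00072).
The ratio of IGF1R to INSR fell to 0.816 of its early value (slope -0.0078, permutation p = 0.00276, adjusted p = 0.00414), and that of IGF1R to IGF2R did not pass (0.0029, permutation p = 0.1, adjusted p = 0.1). With normexp and quantile normalization both calls changed, as IGF1R over INSR no longer passed (-0.0040, adjusted permutation p = 0.133) and IGF1R over IGF2R did (0.0063, adjusted permutation p = 0.0047). With the hours permuted within slides none of the 6 passed after adjustment (KDR over FLT1 had an unadjusted permutation p of 0.0239), with adjusted p of 0.143 for KDR over FLT1, 0.151 for KDR over FLT4 and for KIT over FLT3, 0.230 for KDR over NRP1 and IGF1R over IGF2R, and 0.747 for IGF1R over INSR. Within the first slide the ratio of KDR to FLT1 had a slope of -0.0057, within the second 0.0362 and within the third 0.0141. That of KDR to FLT4 had -0.0224, 0.0586 and -0.0131, and that of IGF1R to INSR 0.0673, -0.0090 and -0.0003. The ratio of KIT to FLT3 had slopes of 0.0598, 0.0187 and 0.0181 within the slides, and the last turned to -0.0137 without 72 h.

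**Figure D3:**
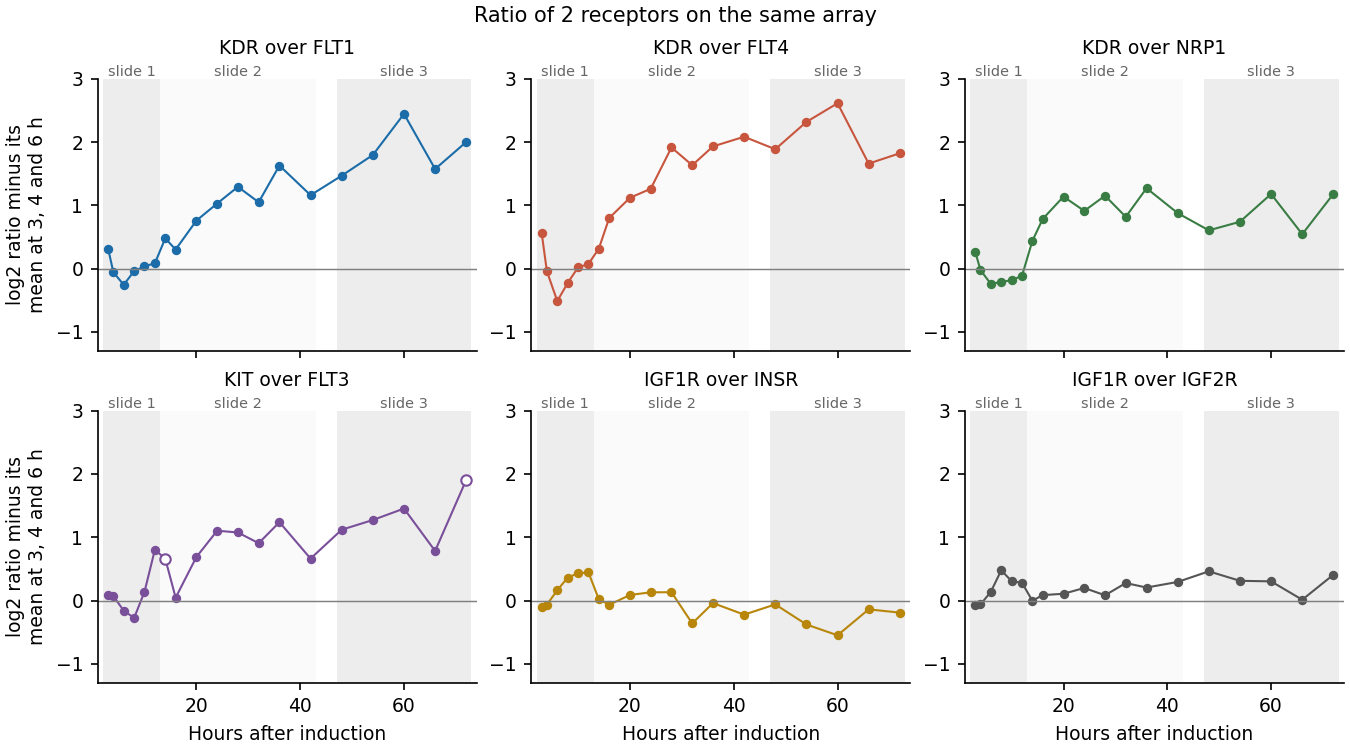
The log2 ratio of 2 receptors on the same array, minus its mean at 3, 4 and 6 h, against hours after induction, 1 panel per pair and 1 point per array, with the 3 slides shaded and open points where FLT3 was not well above background. KDR over FLT1 and KDR over FLT4 climb by about 2 log2 units (2.01 and 2.03 from the first to the last 3 arrays) and the IGF pairs stay within 0.6 of 0.

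**Figure D4:**
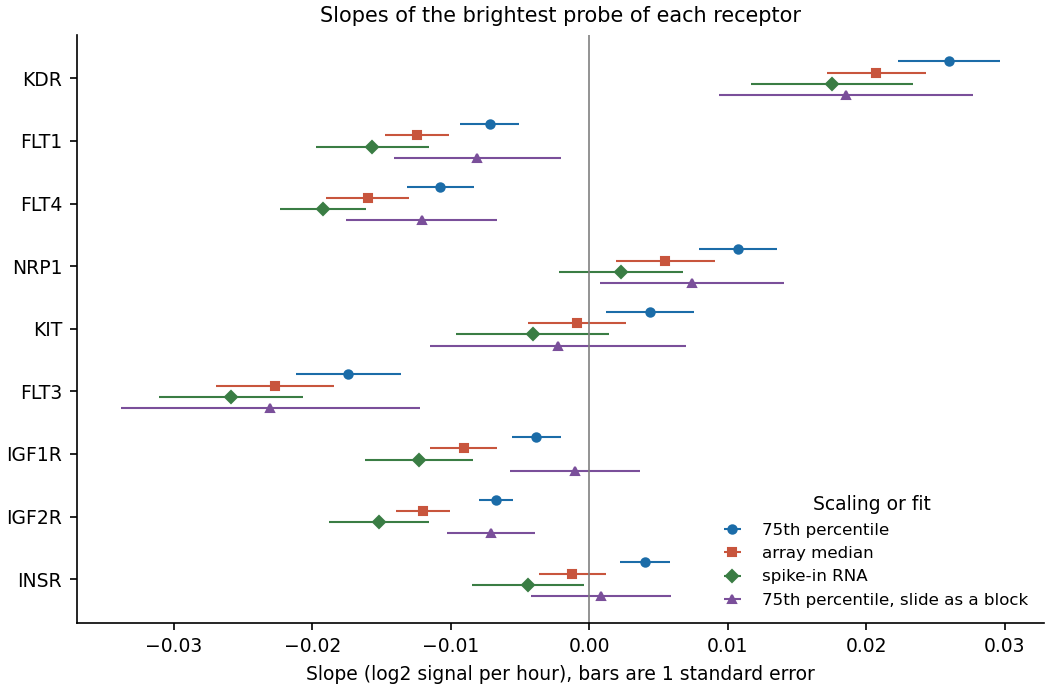
Slope of log2 signal on hours for the representative probe of each receptor, with bars of 1 standard error, with 3 scalings and with the slide as a block. KDR lies above 0 and FLT1, FLT4, FLT3 and IGF2R below 0 in all 4, while KIT and INSR change sign with the scaling.

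The ligands of these receptors were also measured as transcripts of the cells, which says nothing of the recombinant proteins in the medium. The counts of this and of every list that follows stand beside the 30.9% of all tested probes that rose and the 22.4% that fell, and beside 4.71% and 4.47% with the slide as a block. Counts with the array median stand beside 14.6% that rose and 34.6% that fell. Those with the spike-in RNA stand beside 4.62% and 34.8%. Of the 10 ligand genes 8 were tested, with 3 rising (VEGFC, IGF2 and INS), 1 falling (VEGFB) and a median slope of 0.0040, beside 0.0024 over all tested probes. These are 37.5% and 12.5% of the 8, and with the slide as a block VEGFC alone passed. VEGFC, a ligand of FLT4, had a mean of 237 in the first and 400 in the last 3 arrays (1.69-fold, slope 0.0133 ± 0.0034, adjusted p = 0.00325, and 0.026 with the slide as a block, adjusted p = 0.0284). IGF2 stayed between 820 and 1334 up to 54 h and gave 1544, 3056 and 2850 on the last 3 arrays (slope 0.0136 ± 0.0040, adjusted p = 0.00815, and 0.144 with the block), so its rise lay in the last 3 arrays. INS, the insulin gene, was near the detection limit, with means of 28.9 and 44.1 and 13 arrays well above background (adjusted p = 0.00256, and 0.257 with the block).
VEGFB, a ligand of FLT1, fell from 9089 to 5968 (slope -0.0086, adjusted p = 0.000288, and 0.993 with the block). VEGFA had means of 2100 and 2153 (adjusted p = 0.858), PGF, another FLT1 ligand, of 717 and 644 (adjusted p = 0.116), KITLG of 348 and 383 (adjusted p = 0.884) and FLT3LG of 72.1 and 92.7 (adjusted p = 0.0752). VEGFD was well above background on 0 arrays and IGF1 on 1. Under either of the other scalings 0 ligands rose and 2 fell.

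Of 9 tested receptors related to the group, 2 rose, 4 fell and the median slope was -0.0015. TEK, the angiopoietin receptor of endothelial cells, fell 4.63-fold, from 1016 to 220 (slope -0.0334, adjusted p = 8.01e-09), and also with the slide as a block (-0.0461, adjusted p = 0.000696). PDGFRB, a platelet-derived growth factor receptor of mesenchymal cells, fell from 101 to 53.3 (adjusted p = 0.00071). TIE1, an orphan partner of TEK, rose from 63.7 to 98.7 (adjusted p = 0.000338) and CSF1R, the receptor of macrophage colony-stimulating factor, from 42.1 to 83.9 (adjusted p = 0.0378). INSRR, a relative of INSR, was well above background on 0 arrays. Neither rise passed with the spike-in RNA, where 0 rose and 6 fell, and with the slide as a block TEK alone passed.

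Of 10 tested IGF binding proteins and their regulators, 2 rose and 2 fell (20.0% each, IGFALS included), with a median slope of 0.0028. IGFBP5 fell from 211 to 57.2 (slope -0.0251, adjusted p = 0.000103) and PAPPA, a protease that cuts IGF binding proteins, from 294 to 130 (slope -0.0188, adjusted p = 5.33e-05). IGFALS, which holds IGFs in a complex in blood, had means of 18.6 and 43.2. It was well above background on 0 of the first 3 arrays and on 11 in all, so it was tested only through later arrays where it was brighter, and its rise is given as values alone. IGFBP7 rose from 1001 to 1472 (adjusted p = 0.00631, but 0.316 with the array median). With the spike-in RNA 0 rose and 3 fell, and with the slide as a block 0 passed. Of 3 IGF2 mRNA binding proteins, IGF2BP1 fell from 17396 to 10569 (slope -0.0125, adjusted p = 0.000141, and 0.0117 with the slide as a block), while IGF2BP2 had an adjusted p of 0.0752 and IGF2BP3 of 0.218.

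The adaptors and kinases that pass on the receptors' signal moved both ways: 9 of 27 rose (33.3%, near the share over all probes) and 11 fell (40.7%), with a median slope of 0.0017. SOS1, the exchange factor that loads RAS, rose from 125 to 290 (slope 0.0192, adjusted p = 5.87e-06) and IRS2, the substrate that insulin and IGF receptors phosphorylate, from 2697 to 3802 (slope 0.0132, adjusted p = 0.00571). GRB14, an adaptor that inhibits INSR, fell from 3162 to 2441 (slope -0.0104, adjusted p = 0.000466) and GRB2, which links receptors to SOS, from 3151 to 2058 (slope -0.0091, adjusted p = 8.5e-05).
Of 22 tested negative regulators 3 rose and 8 fell, with a median slope of -0.0001. CBLC rose from 430 to 847 (slope 0.0174, adjusted p = 8.24e-06) and CBLB from 1548 to 2395 (adjusted p = 0.000148), both ubiquitin ligases of the CBL family that send activated receptors to degradation. CBL, named only because it is of this family, went the other way, from 2089 at 3 h to 1275 at 72 h. SOCS2 fell from 5138 to 2312 (slope -0.0174, adjusted p = 3.67e-05) and SOCS6 from 141 to 65.2 (adjusted p = 0.008), both of the family of suppressors of cytokine signalling. With the spike-in RNA, 1 adaptor rose and 13 fell, and 0 negative regulators rose and 12 fell. With the slide as a block, 0 adaptors rose and 1 fell, and 1 negative regulator rose and 1 fell.

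FOXO factors are held out of the nucleus by insulin and IGF signalling, and 24 genes known as their targets, INSR and IRS2 among them, were examined. Of 19 tested, 6 rose and 3 fell, with a median slope of 0.0031. TXNIP, a thioredoxin inhibitor that other factors also regulate, rose 4.11-fold from 1660 to 6827 (slope 0.0367, adjusted p = 2.06e-06) and BCL6 3.00-fold from 626 to 1880 (adjusted p = 0.000331). ERBB3, a receptor of neuregulins, fell from 2843 to 1373 (adjusted p = 3.43e-05) and SOD2, the mitochondrial superoxide dismutase, from 3944 to 2652 (adjusted p = 1.04e-05). With the spike-in RNA, 2 rose and 6 fell, and with the slide as a block 0 rose and 1 fell.

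IGF2R works in the sorting of mannose 6-phosphate proteins to lysosomes, and of 17 genes of this route 2 rose and 8 fell, with a median slope of -0.0044, where 22.4% of all tested probes fell. SNX1, a sorting nexin of the retromer route that returns IGF2R from endosomes, fell 2.04-fold from 1597 to 783 (slope -0.0153, adjusted p = 5.13e-08) and NAGPA, the enzyme that uncovers the mannose 6-phosphate tag, from 2471 to 1428 (slope -0.0121, adjusted p = 7.62e-06). The sorting nexins SNX6 and SNX2 rose, from 5538 to 6712 (adjusted p = 0.000369) and from 13426 to 15466 (adjusted p = 0.0167). With the array median or the spike-in RNA 0 rose and 12 fell, where 34.6% and 34.8% of all tested probes fell. With the slide as a block 0 rose and 2 fell. Of 7 genes for the shedding of receptors from the surface, ADAM10, a protease that cuts receptors outside the membrane, rose from 736 to 1019 (adjusted p = 1.1e-05, and 0.0268 with the block, but 0.295 scaled to the array median and 0.804 scaled to the spike-in RNA), NCSTN, a subunit of the gamma-secretase, fell from 8412 to 5591 (adjusted p = 0.000291, and 0.0575 with the block), and the median slope was -0.0002.

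KDR and KIT are also markers of mesoderm, vessels and blood, so the markers of these lineages are given beside them. Of 10 mesoderm markers 8 were tested, 4 rose (50.0%) and 0 fell, with a median slope of 0.0140. With the spike-in RNA 2 rose, with the array median 4 rose and 1 fell, and with the slide as a block 0 passed. HAND1 rose from 48.0 to 236 (slope 0.0461, adjusted p = 8.07e-05) and MESP1 from 104 to 360 (slope 0.0309, adjusted p = 2.24e-05). The late mean of HAND1 was carried by 66 h, with 115, 641 and 179 on the last 3 arrays. HAND1 was not well above background from 8 to 20 h. The summed signal of the list had its minimum at 10 h (848) and was 1449, 3285 and 1844 on the last 3 arrays, with the probe of MESP2 the brightest. The sum also went up from 848 at 10 h to 1650 at 28 h, while KDR went from 2000 to 5558. Over these arrays MESP1 went from 77.0 to 201, MESP2 from 267 to 583 and EOMES from 130 to 118. The sum of the endothelial markers without TEK went from 929 to 1413 and that of the blood markers from 3141 to 4411. From 32 to 60 h the mesoderm sum went from 1398 to 1449 and KDR from 4075 to 7742. At 66 h the mesoderm sum was 3285 and KDR 4922. These hours include the lowest mesoderm sum (10 h) and the highest KDR signal (60 h), so the changes depend on the hours chosen. KDR at 32 h was also below its signal at 28 h (5558) and at 36 h (5150). The 10 and 28 h arrays lie on different slides, as do those of 32 and 60 h. The part of mesoderm cells in the rise of KDR was not tested.
Of 12 endothelial markers 8 were tested. TIE1 and VWF (97.9 to 190, adjusted p = 3.75e-05) were among the 4 that rose, and TEK and FLI1 (56.0 to 24.2, adjusted p = 0.00617, well above background on 1 of the last 3 arrays) were the 2 that fell. With the spike-in RNA 0 rose and 2 fell, with the array median 2 rose and 2 fell, and with the slide as a block 0 rose and 1 fell. EMCN and ERG were well above background on 0 arrays and PECAM1 on 1, and the summed signal, with the probe of TEK the brightest, went from 2217 at 3 h, its highest value, to 1555 at 72 h, its lowest. TEK itself gave 1058 and 175 on these arrays, and the sum of the other 11 was 1159 at 3 h and 1381 at 72 h. Of 12 blood markers 9 were tested: PTPRC rose from 69.4 to 148 (adjusted p = 0.0364), RUNX1 fell from 228 to 49.3 (adjusted p = 7.09e-08, not well above background at 72 h) and LMO2 fell from 645 to 392 (adjusted p = 0.035). With the spike-in RNA 0 rose and 3 fell, with the slide as a block 0 rose and 1 fell, and CD34, GATA1 and HBE1 were well above background on 0 arrays.
Of 9 pluripotent cell markers 0 rose and 4 fell. DNMT3B fell from 181447 to 101131 (adjusted p = 1.78e-06), ZFP42 from 44263 to 24810.0 (adjusted p = 8.18e-05) and POU5F1 with a slope of -0.0066 (adjusted p = 0.000259), while SOX2 (adjusted p = 0.517) and NANOG (adjusted p = 0.253) did not pass, and with the slide as a block 1 marker fell. The sum of this list went from 871713 at 8 h to 654598 at 42 h. Of 10 fibroblast markers 5 were tested, COL1A2 rose from 4715 to 6079 (adjusted p = 0.000164, 0.609 scaled to the array median and 0.669 scaled to the spike-in RNA) and PDGFRB fell, and with the slide as a block neither passed. FAP and FBN1 were well above background on 0 arrays, and the sum, with the probe of THY1 the brightest, ranged from 26458 at 48 h to 47199 at 72 h.

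Among 13966 genes whose representative probe was well above background on all 19 arrays, some followed a receptor closely, by the Pearson r of log2 signal over the 19 arrays, which share the slides and the course in time. Those most like KDR were MARK4, B4GALT4 and SYNPR (r of 0.96 each). Among those most like FLT4 were IL15 and BID (0.94 each), those most like NRP1 were DDX25, B3GNT9 and PODXL2 (0.94, 0.93 and 0.93) and among those most like IGF2R were TSPAN6 and SLC25A13 (0.93 each). KIT was followed most closely by TBC1D23, EMC2 and TMEM50B (0.90 each), FLT1 by DRC11, PLPP2 and ZNF215 (0.87, 0.86 and 0.86), IGF1R by SIAH1, RBM17 and SCAF8 (0.84, 0.82 and 0.81) and INSR by FAM120C, DIP2C and GOLGA3 (0.81 each).
Among the receptors themselves, over the same 19 arrays, r was 0.64 between KDR and KIT, -0.86 between KDR and FLT4, 0.72 between FLT1 and FLT3 and 0.07 between KIT and FLT3. Other receptors on different chromosomes had r of similar size, such as 0.73 for FLT4 and IGF2R, 0.68 for FLT3 and IGF2R and -0.74 for KDR and IGF2R. These pairs are examples, and each receptor was read by its representative probe alone. Whether position on a chromosome has a part in any r was not tested.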

How the data were processed

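RNA from 19 samples was labelled with Cy3 and hybridized to Agilent human arrays, 1 per time point. Per the file headers, the authors deposited the output of Agilent Feature Extraction 10.10.1.1, in which each spot has a processed intensity, background-subtracted and detrended within the array, raw median pixel intensities, and flags of 0 or 1. They also deposited a table of this intensity times 1 factor per array, blank where a spot is not well above background, and its rule of scaling is not given in the sources used here. Outlier spots (0.632%) were left out, no spot was saturated, copies of a probe were averaged, and log2 signals were centred on each array's 75th percentile. Probes were named through RefSeq accessions (28174 of 50683 probes, 20503 genes, GRCh38.p14). limma 3.58.1 in R 4.3.3 (lmFit, eBayes) was fitted to 32111 probes after a check on simulated data, and Python 3.11.15 was used for ratios and lists. The arrays' number limits the precision.

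The receptors and gene lists were chosen with earlier results of these data known. Genes named beside the receptors were all ligands, NANOG, SOX2 and POU5F1, up to 2 steepest rises and 2 steepest falls that passed in each other list, genes not detected, and the 3 genes of highest Pearson r with each receptor detected on all arrays. A few results that fall under these rules are not reported here. Alternatives were array median, spike-in (7 of 10 levels), normexp with quantile normalization, the deposited table, the filter on background, log2 hours, the slide as a block, 3 to 54 h, the mean of a gene's probes and each array left out. The deposited table with its own scaling, the course without 14 and 72 h, and the change of KIT over FLT3 without 72 h, were added after seeing the data.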

Additional observations from a re-analysis of the deposited data

How the results depend on the processing

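No paired analysis was possible because every hour was sampled 1 time. The deposited table was not run after subtracting the 75th percentile, which would have scaled it a second time, and with only probes well above background on all 19 arrays FLT3 gives no value. With the slide as a block the slopes were 0.0185 (KDR), -0.0081 (FLT1), -0.0121 (FLT4), 0.0074 (NRP1), -0.0230 (FLT3) and -0.0071 (IGF2R), all short of the threshold, that of KIT turned to -0.0023, and 0 receptors rose or fell, with 1513 of all probes rising and 1434 falling. The trends of the log2 ratios became 0.0266 (KDR over FLT1), 0.0306 (KDR over FLT4), 0.0111 (KDR over NRP1), 0.0208 (KIT over FLT3) and -0.0019 (IGF1R over INSR), and the cubic curve lost FLT1 (adjusted p = 0.267), IGF2R (0.303) and INSR (0.125) and gained IGF1R (0.0159). With the array median the slope was 0.0055 for NRP1, -0.00089 for KIT, -0.0091 for IGF1R and -0.0012 for INSR, and with the spike-in RNA 0.0023, -0.0041, -0.0123 and -0.0044. Both gave a cubic curve of IGF1R that passed (adjusted p = 0.00706 and 0.00419) and 1 rising receptor, with 4678 and 1485 of all probes rising and 11117 and 11188 falling. Normexp gave slopes of -0.0053 for FLT1, 0.00051 for IGF1R and 0.0045 for INSR, a cubic adjusted p of 0.0683 for FLT1, and trends of -0.0040 for IGF1R over INSR (adjusted permutation p = 0.133, lost) and 0.0063 for IGF1R over IGF2R (0.0047, gained). From 3 to 54 h the slope was -0.0032 for FLT1 (cubic adjusted p = 0.428), 0.0134 for KIT and 0.0067 for INSR, and 4 receptors rose, with 9417 of all probes rising and 6626 falling. The mean of all probes gave -0.0055 for FLT1 and 0.0137 for KIT, the deposited table -0.0048 for IGF1R, and the course without 14 and 72 h 0.0083 for KIT. Of 11 alternatives, the slope result stayed the same in 7 for each of FLT1, IGF1R and INSR, in 8 for NRP1 and in 5 for KIT. With each array left out in turn, slopes ranged from 0.0029 to 0.0088 for KIT, from -0.0044 to -0.0029 for IGF1R and from 0.0029 to 0.0058 for INSR, the cubic adjusted p of FLT1 from 0.00714 to 0.0762 and the trend of IGF1R over IGF2R from 0.0023 to 0.0045. The calls changed without 72 h (KIT rose, FLT1 cubic lost), 14 h (IGF1R fell, adjusted p = 0.0477), 66 h (INSR rose, and IGF1R over IGF2R, 0.0151) and 8 h (the same ratio, 0.0213). The causes of these changes were not tested. Dim probes (FLT3, the NM_003873 probe of NRP1, the dim probe of KIT, FLI1, and at 72 h IGFBP5, PDGFRB, RUNX1 and SOCS6) were not well above background on some arrays, mostly those at 14, 16 and 72 h with a higher floor.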

Other observations

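The 66 h array stood apart in several genes at once, which were picked after their values were seen. TBXT, a factor of early mesoderm, gave 33.7, 295 and 94.7 on the last 3 arrays (60, 66 and 72 h), and EOMES, a factor of the primitive streak, gave 94.0, 372 and 117. HAND1 gave 115, 641 and 179 on the same arrays and MESP1 245, 637 and 300. The FLT1 probe for NM_002019 had its highest signal there (277), IGF1R its lowest (3676), and KDR went from 7742 to 4922 between 60 and 66 h.

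IGFBP1, a binding protein of IGFs, was well above background on 1 array, at 20 h, with a signal of 441, and was between 4.66 and 22.2 on the other arrays. STC1, an inhibitor of the protease PAPPA, went from 61.8 at 6 h to 831 at 28 h and back to 77.5 at 66 h. KITLG was at 735 at 72 h, where KIT was at its lowest (2042), and between 223 and 548 on the arrays before. These genes were also chosen after their values were seen, so their peaks are given with no test.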
